A study of Mus musculus with 120 samples.

Results

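The data described here are the transition cells of the series: single mouse group 2 innate lymphoid cells (ILC2) recovered 30, 60 or 90 min after the onset of cytokine secretion. They were chosen by the time in their source label, 22 cells per time, and by a minimum of 10000 gene reads, which left 64 of 66 labelled transition cells and 64 of all 120 cells of the series. The 2 cells left out were an IL-5 index cell at 30 min with 73 gene reads and an IL-5 index cell at 60 min with 65. The IL-13 index holds 11 cells at each time, and the IL-5 index holds 10, 10 and 11 cells at 30, 60 and 90 min. The index is the cytokine whose release was imaged to mark the onset, and no cell belongs to both indexes.

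All cells are from wildtype C57BL/6 animals, sorted for c-Kit and Sca-1 among lineage-negative cells from the mesentery, a fat tissue, of 20 mice that were pooled, so no cell can be traced to a mouse. Per the study's methods they had been cultured for months with IL-2 before they were used, usually from retired female breeders, and IL-2 and IL-33 were the stimulus during imaging. Each cell gave 1 library. No age or culture is given for a cell, so the cells of an index at a time are 1 sample, the values below carry no test between times, and the spread over cells is a description of those cells.

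ILC2 are lymphocytes without antigen receptors that live in barrier and fat tissue and answer epithelial alarm signals by secreting interleukin (IL) 5, which sustains eosinophils, and IL-13, which drives mucus and smooth muscle responses. IL-33 binds its receptor ST2, encoded by Il1rl1, and signals through MyD88 to NF-kB and MAP kinases, which switch on short-lived early genes and inhibitors that end the signal. IL-2 acts through JAK kinases and STAT5 and supports survival and growth. Secreted proteins enter the endoplasmic reticulum (ER), are folded there by chaperones and leave by vesicles.

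Depth was 50723 to 785198 gene reads per cell. Median depths at 30, 60 and 90 min were 219186, 270610 and 156702 for the IL-13 index and 358946, 317759 and 184079 in the IL-5 index, so the 90 min cells were the shallowest of both. The 12 ILC2 markers checked (among them Gata3, Rora, Id2, Il1rl1, Il2ra, Klrg1, Kit and Ly6a) each had at least 3 reads in every index and time, and their summed level ran from 11081 to 14212 CPM (counts per 1000000 gene reads). The B cell, myeloid, stromal and ILC1, ILC3 or NK cell markers checked were at 0 reads in every group. Of 10 T cell markers 3 to 5 reached 3 reads in a group, with a summed level of 566 to 1645 CPM, 262 to 1362 CPM of it from Trbc2, while Cd4, Cd8a and Cd8b1 were at 0. Cd3g ran from 0 to 214 CPM over the groups, Lat from 40.0 to 170 CPM and Trbc1 from 0 to 128 CPM. Cd3d was at 70.6 CPM at 30 min in the IL-13 index and at 0 elsewhere. Trbc2 rested on 10, 10 and 7 cells of the IL-13 index and 10, 10 and 5 of the IL-5 index. Pecam1, an endothelial marker, was at 32.8 to 175 CPM, and the adipocyte markers and Cdh5 were at 0. Of the mast cell and basophil markers Fcer1a was at 0 at 30 min in both indexes and at 326 and 241 CPM at 90 min, where 2 cells of each index had a read and 1 of them held 99.8% and 99.3% of the reads, and the other markers of that list were at 0 at 90 min. The part of these markers in the results below was not tested. An IL-5 index cell at 90 min, with 66588 gene reads, had 14.1% mitochondrial reads, beside at most 4.66% in any other transition cell. Without it 293 genes pass 2-fold in both indexes in the first comparison, in place of 301. Libraries were pooled by 5 or 6 before tagmentation. The labels name no pool for a cell, but each index, time and date in the titles has 5 or 6 cells. If these were the pools, time and pool cannot be told apart, and values are also given by title date, here called a set.

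The first comparison asks what differed between 90 and 30 min after onset, and whether cells picked for IL-13 and cells picked for IL-5 moved alike. Reads were summed over the cells of an index and time, and genes with at least 50 CPM at the higher time in each index were compared. Of 2619 genes, 175 were at least 2-fold higher at 90 than at 30 min in both indexes (6.68%) and 126 were at least 2-fold lower in both (4.81%). A further 239 passed 2-fold in opposite directions (9.13%). Within the IL-13 index alone 675 genes were higher and 517 lower (25.8% and 19.7%), and within the IL-5 index 508 were higher and 431 lower (19.4% and 16.5%). Most differences of 2-fold were therefore seen in 1 index only. The log2 ratios of the indexes correlated weakly over genes, with Pearson r = 0.050 over all 2619 genes and r = 0.254 over the 834 genes with at least 200 CPM, where 40 genes passed 2-fold in the same direction and 19 in opposite directions. Over the 177 genes with at least 1000 CPM it was r = 0.048, with 1 gene in the same direction and 3 in opposite directions. The log2 ratios of the 2 sets of an index, which hold different cells, correlated at r = 0.150 within the IL-13 cells and r = 0.067 within the IL-5 cells. Genes are not independent replicates, and these values carry no test.

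**Figure D1:**
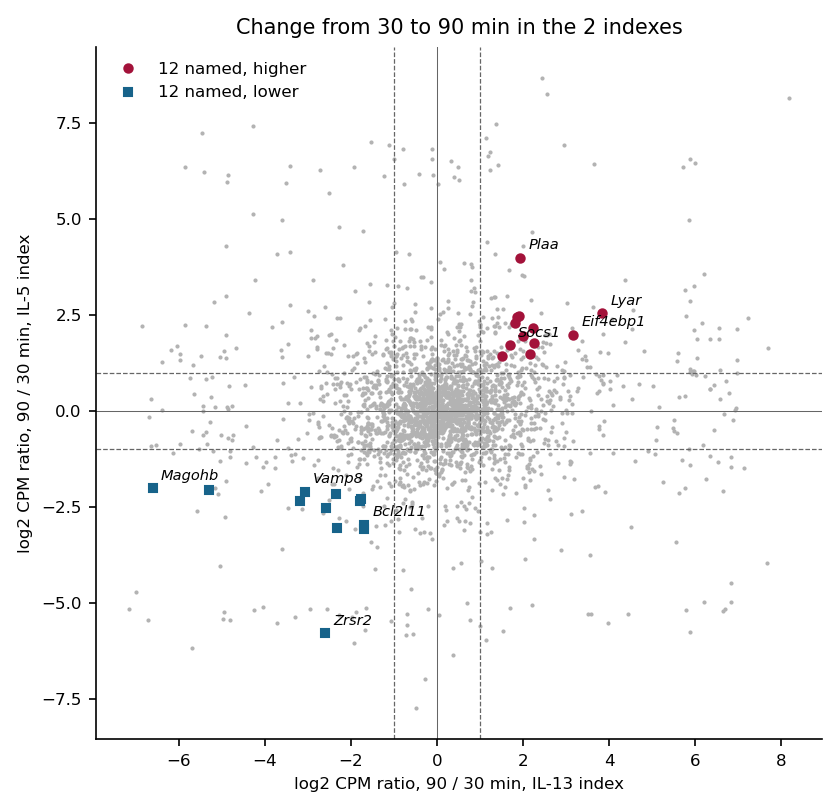
Log2 ratio of summed CPM at 90 against 30 min for the 2619 genes compared, with the IL-13 index on the horizontal and the IL-5 index on the vertical axis. Grey points are genes, dashed lines mark 2-fold, and coloured marks are the 12 named genes higher and the 12 named genes lower in both indexes, which sit in the upper right and lower left corners by the rule that chose them.

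Genes are named below where they moved the same way in both indexes. The 24 leading genes also had a read in at least 50% of the cells of the higher time, and kept their direction in each of the 4 sets, when CPM was averaged over cells, and on leaving out any 1 cell. Of the 301 genes past 2-fold in the same direction, 100 met the first of these and 70 met all, 33 higher and 37 lower. Of the 239 genes past 2-fold in opposite directions, 57 and 34 met the same conditions in their own directions. These conditions chose the genes and are no further evidence for them. Of the 70 genes, 14 of 33 higher and 13 of 37 lower had their 60 min level between the 30 and 90 min levels in both indexes. To count genes past 2-fold, a group with fewer than 3 reads of a gene was set to 3 reads. A ratio printed for a group with 1 or 2 reads is to the reads found, with its interval. Leaving out 1 cell moved the fold of each of the 24 by over 1.5 times in at least 1 index, and of 19 of them in both. In this way 4 of the 24 came under 2-fold in 1 index, with log2 ratios down to 0.34 for Zzz3, 0.74 for Stat5a and 0.81 for Arfgap2 (IL-13 index) and 0.98 for Pabpc4 (IL-5 index). In a single set the ratio was as small as -0.05 for Tpm4 (first IL-13 set) and 0.14 for Lyar (second IL-5 set). Intervals in brackets are exact 95% intervals of the log2 ratio for counting error only. Reads carry no molecular identifiers, and the intervals do not cover the spread between cells.

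The mRNAs of the 2 imaged cytokines, shown because their products mark the onset, were both lower at 60 than at 30 min in their own index and differed at 90 min. Il13 stood at 2144, 967 and 504 CPM (IL-13 index) and 1897, 983 and 1713 CPM (IL-5 index) at 30, 60 and 90 min, the order used for levels below. For Il13 the log2 ratio of 90 to 30 min was -2.09 (interval -2.20 to -1.98) among IL-13 cells. Among IL-5 cells it was -0.15 (interval -0.21 to -0.09), and leaving out 1 cell moved it between -0.65 and 0.24. Il13 ranged over the IL-13 cells from 150.4 to 5840.3 CPM (median 1364) at 30 min, 0 to 3828 CPM (median 735) at 60 min and 0 to 1302 CPM (median 571) at 90 min. Il13 ranged over the IL-5 cells from 154 to 6480.0 CPM (median 1567) at 30 min, 0 to 4448 CPM (median 814) at 60 min and 4.55 to 6188 CPM (median 961) at 90 min. The highest cell at 90 min in the IL-13 index thus lay below the median cell at 30 min, whereas the cells of the IL-5 index overlapped across the whole range.

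Il5, the neighbouring cytokine gene on the same chromosome, stood at 1309.7, 1792 and 1225 CPM (IL-13 index) and 4602, 2471 and 3998 CPM (IL-5 index). Il5 had log2 ratios of -0.10 (interval -0.18 to -0.02) and -0.20 (interval -0.24 to -0.16). On leaving out 1 cell they ran from -0.39 to 0.35 and from -0.70 to 0.10. Il5 ranged over the IL-5 cells from 316 to 11742 CPM (median 3661) at 30 min, 272 to 5709.6 CPM (median 1753) at 60 min and 45.1 to 13310.0 CPM (median 3363) at 90 min. Its level was higher in the IL-5 index than in the IL-13 index at each of the 3 times, and the cells of the 3 times overlapped. The 250 bases before the start of each gene are printed for the same reason. Capitals mark TATAAA on either strand, which in Il13 occurs as 2 overlapping matches that begin 31 and 29 bases before the start. Sequences and starts here are from RefSeq, build GRCm38.p6, and are written 5′ to 3′ on the strand of the gene.
Il13 promoter, chr11:53634703-53634952, minus strand: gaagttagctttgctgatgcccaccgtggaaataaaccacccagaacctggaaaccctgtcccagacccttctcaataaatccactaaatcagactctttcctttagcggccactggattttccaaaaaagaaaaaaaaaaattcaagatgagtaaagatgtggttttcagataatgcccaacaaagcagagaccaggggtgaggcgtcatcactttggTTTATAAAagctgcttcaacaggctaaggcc
Il5 promoter, chr11:53720544-53720793, plus strand: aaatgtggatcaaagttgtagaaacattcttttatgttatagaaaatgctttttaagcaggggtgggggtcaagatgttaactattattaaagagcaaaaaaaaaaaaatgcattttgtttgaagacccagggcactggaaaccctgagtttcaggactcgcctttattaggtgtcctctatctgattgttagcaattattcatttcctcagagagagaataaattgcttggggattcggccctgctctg

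**Figure D2:**
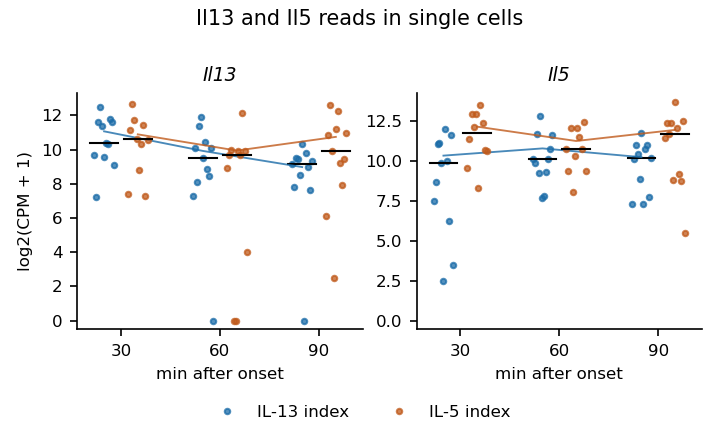
Level of Il13 and Il5 as log2(CPM + 1) at 30, 60 and 90 min after onset. Points are single cells of the IL-13 index (blue) or IL-5 index (orange), black bars are medians over cells and lines join the levels of summed reads. Il13 steps down from 2144 to 504 CPM in the IL-13 index, and the other courses do not run in 1 direction.

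Genes of the NF-kB pathway were mostly lower at 90 than at 30 min. Of 15 members of the list compared (subunits, IkB proteins and feedback inhibitors), 9 were lower in both indexes with intervals that leave out 0 and 1 was higher, and 1 was at least 2-fold lower (6.67%, beside 4.81% of all) and 2 passed 2-fold in opposite directions (9.13% of all), where 18.2% of all genes compared were lower and 22.4% higher by that rule. Of these, 3 were lower in each of the 4 sets, in the mean of the cells and on leaving out any 1 cell (5.96% of all genes compared), and 0 were higher so (7.03% of all). The list median log2 ratio was -0.76 (IL-13 index) and -0.69 (IL-5 index), beside 0.13 and 0.01 for all genes compared, and it was below 0 in each of the 4 sets. Rel encodes the c-Rel subunit, a DNA-binding protein of the pathway in lymphocytes. Rel ranged over the IL-13 cells from 12.8 to 2684 CPM (median 848) at 30 min, 0 to 1820.0 CPM (median 423) at 60 min and 0 to 907 CPM (median 305) at 90 min. Rel ranged over the IL-5 cells from 321 to 1276 CPM (median 574) at 30 min, 0 to 836 CPM (median 178) at 60 min and 0 to 654 CPM (median 295) at 90 min. The median cell was lower at each later time in the IL-13 index, and lowest at 60 min in the IL-5 index, while single cells of the 3 times overlapped. Summed Rel over the cells was 1024, 511 and 290.0 CPM (IL-13 index) and 639, 356 and 247 CPM (IL-5 index). Rel had log2 ratios of -1.82 (interval -1.96 to -1.68) and -1.37 (interval -1.52 to -1.23). By set these were -2.18 and -1.24 (IL-13 index) and -1.08 and -1.59 (IL-5 index).

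The other members that were lower in every set were Nfkb2, the precursor of the p52 subunit, and Nfkbiz, an inducible nuclear cofactor of NF-kB. Nfkb2 stood at 404, 279 and 293 CPM (IL-13 index) and 462, 303 and 232 CPM (IL-5 index). Nfkbiz stood at 756, 574 and 243 CPM (IL-13 index) and 427, 130.2 and 273 CPM (IL-5 index). Nfkbiz had log2 ratios of -1.64 and -0.64. Nfkbia, which encodes the inhibitor that holds NF-kB in the cytoplasm and is itself a target of it, had 2994, 3005 and 1543 CPM (IL-13 index) and 2186, 1409 and 1601 CPM (IL-5 index). Nfkbia had log2 ratios of -0.96 and -0.45. In the second IL-5 set its ratio was 0.06. Bcl3, Tnfaip3, Tnip1, Nfkbid and Rela were the remaining members lower in both, and Nfkb1, the p50 precursor, was the 1 member higher. Nfkb1 had log2 ratios of 0.20 and 0.09.

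Early response genes followed in part. Of 9 genes of the Egr, Nr4a, Ier, Btg and Zfp36 families compared 4 were lower in both indexes by interval (Nr4a1, Egr2, Ier2 and Zfp36l1, 44.4% beside 18.2% of all genes) and 1, Ier3, was higher, while 1 was lower, 1 higher and 1 opposite past 2-fold, with list medians of -0.99 (IL-13 index) and -0.51 (IL-5 index). In the second IL-5 set the list median was 0.31, and of the 4 lower genes Nr4a1 and Egr2 were lower in every set and on leaving out any 1 cell. Nr4a1, an orphan nuclear receptor induced within minutes of stimulation, stood at 124, 127 and 28.8 CPM (IL-13 index) and 117, 13.2 and 36.6 CPM (IL-5 index). Nr4a1 had log2 ratios of -2.11 (interval -2.58 to -1.67) and -1.68 (interval -2.07 to -1.30). Egr2, a zinc finger factor of the same early wave, stood at 220.0, 137 and 110.5 CPM (IL-13 index) and 126, 38.9 and 64.5 CPM (IL-5 index). Egr2 had log2 ratios of -0.99 and -0.96. Of 5 AP-1 genes compared, Batf and Junb were lower in both by interval (40.0%, beside 18.2% of all genes), 0 passed 2-fold in the same direction and 1 passed in opposite directions. Log2 ratios were -0.60 and -0.40 for Batf and -2.15 and -0.38 for Junb, but in the second IL-5 set the ratios were 0.05 and -0.27. Myc, which drives growth genes, had 352, 436 and 133 CPM (IL-13 index) and 351, 266 and 235 CPM (IL-5 index). Myc had log2 ratios of -1.41 and -0.58. Cdkn1a, the p21 inhibitor of the cell cycle, had 625, 392 and 157 CPM (IL-13 index) and 326, 104 and 202 CPM (IL-5 index). Their lists were not lower as a whole. Of 5 Myc and G1 genes compared 1 was higher and 2 were lower by interval, with medians of -0.051 (IL-13 index) and 0.11 (IL-5 index). Of 11 Gadd45 and stress genes, which hold Cdkn1a, 1 was higher and 2 were lower (9.09% and 18.2%, beside 22.4% and 18.2% of all genes).

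The actin cytoskeleton was the other broad group with lower levels at 90 min. Of 22 genes compared 3 were at least 2-fold lower in both indexes (13.6%, beside 4.81% of all genes), and 13 were lower by interval (59.1%, beside 18.2%) and 0 were higher, 5 of the 13 in every set and on leaving out any 1 cell, with list medians of -0.60 (IL-13 index) and -0.35 (IL-5 index) that were below 0 in each set. Actg1 and Actb encode the cytoplasmic actins, whose sequences are close enough that reads could be shared. Actg1 ranged over the IL-13 cells from 903 to 13707 CPM (median 6298) at 30 min, 623 to 14969 CPM (median 2982) at 60 min and 14.3 to 11342 CPM (median 2527) at 90 min. Actg1 ranged over the IL-5 cells from 600.2 to 12585 CPM (median 1687) at 30 min, 217 to 3404 CPM (median 1132) at 60 min and 15.0 to 3851 CPM (median 729) at 90 min. The medians of both indexes were lowest at 90 min, and the cells overlapped. Summed Actg1 was 6135, 5115 and 2066 CPM (IL-13 index) and 2351, 1281 and 1130.0 CPM (IL-5 index). Actg1 had log2 ratios of -1.57 (interval -1.62 to -1.52) and -1.06 (interval -1.13 to -0.99). Actb stood at 11748, 9243 and 7268 CPM (IL-13 index) and 5075, 4329.7 and 3271 CPM (IL-5 index). Actb had log2 ratios of -0.69 and -0.63.

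Tpm4 (chr8:72134975-72153142), a tropomyosin that lies along actin filaments, was the 1 gene of the list among the leading genes, at 215, 172 and 36.0 CPM (IL-13 index) and 133, 4.39 and 23.0 CPM (IL-5 index). A read of Tpm4 was found in 10 of 11, 8 of 11 and 3 of 11 cells of the IL-13 index and 5 of 10, 1 of 10 and 2 of 11 cells of the IL-5 index. Tpm4 had log2 ratios of -2.58 (interval -2.99 to -2.19) and -2.54 (interval -3.03 to -2.08). Vim, the intermediate filament vimentin, had 255, 33.0 and 0 CPM (IL-13 index) and 58.6, 6.73 and 0 CPM (IL-5 index). Since no read was found at 90 min, the difference is a bound against 3 reads over the group, at least 141-fold lower and at least 35.7-fold lower. Its reads at 30 min came from 6 of 11 and 3 of 10 cells. Pfn1, encoding the actin monomer binder profilin, and Myl6, a myosin light chain, had log2 ratios of -0.77 and -0.36 (Pfn1) and of -0.55 and -0.26 (Myl6). Epb41l2 (chr10:25359798-25523519), a protein 4.1 that ties the membrane to the skeleton, was not on the list and stood at 56.0, 2.94 and 16.2 CPM (IL-13 index) and 70.1, 65.3 and 13.7 CPM (IL-5 index). Epb41l2 had log2 ratios of -1.79 and -2.36.

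Genes that decide survival and the surface of the cell were among the leading genes lower at 90 min. Bcl2l11 (chr2:128126038-128162547) encodes BIM, which starts mitochondrial apoptosis. Bcl2l11 ranged over the IL-13 cells from 0 to 1480.2 CPM (median 585) at 30 min, 0 to 746 CPM (median 7.02) at 60 min and 0 to 944 CPM (median 0) at 90 min. Bcl2l11 ranged over the IL-5 cells from 0 to 1558 CPM (median 2.30) at 30 min, 0 to 289.6 CPM (median 0) at 60 min and 0 to 313 CPM (median 0) at 90 min. A read of Bcl2l11 was found in 10 of 11, 6 of 11 and 4 of 11 cells of the IL-13 index and 6 of 10, 1 of 10 and 2 of 11 cells of the IL-5 index. In the IL-5 index at 30 min, cells at 1232 and 1558 CPM held nearly all reads. The other cells with a read there were at 2.26 to 4.32 CPM. At 90 min most cells of both indexes had no read. The summed level was 534, 169.8 and 166 CPM (IL-13 index) and 238, 9.66 and 30.6 CPM (IL-5 index). Bcl2l11 had log2 ratios of -1.68 (interval -1.87 to -1.50) and -2.96 (interval -3.38 to -2.57). Among IL-5 cells 1 cell held 61.1% of its reads at 30 min and 1 held 96.4% at 90 min, and leaving out 1 cell moved that ratio between -7.04 and -1.74. Of 6 survival and death genes compared 4 were lower in both by interval (66.7%, beside 18.2% of all genes), and the other 3 were the protective Mcl1, Bcl2 and Bcl2l1. Log2 ratios were -1.64 and -1.09 for Mcl1, -4.20 and -1.19 for Bcl2 and -0.32 and -1.46 for Bcl2l1. Members with opposite roles were thus lower together. Of the 4, Bcl2l11 alone was lower in every set and on leaving out any 1 cell, and Bcl2 turned to 1.01 in the IL-5 index on leaving out 1 cell.

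Cd274 (chr19:29367455-29388095), encoding the checkpoint ligand PD-L1, stood at 164, 72.8 and 18.0 CPM (IL-13 index) and 86.7, 0 and 16.9 CPM (IL-5 index). A read of Cd274 was found in 8 of 11, 9 of 11 and 2 of 11 cells of the IL-13 index and 5 of 10, 0 of 10 and 1 of 11 cells of the IL-5 index. Cd274 had log2 ratios of -3.19 (interval -3.77 to -2.65) and -2.36 (interval -2.94 to -1.82). Of 7 costimulatory and checkpoint genes compared 4 were lower in both by interval (57.1%, beside 18.2% of all genes), the others being Pdcd1lg2 (the ligand PD-L2), Cd69 and Cd200r1, and 1, the TNF receptor Tnfrsf1b, was higher (14.3%, beside 22.4%). Of the 4, Cd274 alone was lower in every set and on leaving out any 1 cell, and the list median, -0.20 (IL-13 index) and -0.37 (IL-5 index), was 0.11 in the second IL-13 set and 0.65 in the first IL-5 set. Irf5 (chr6:29526625-29541871), a transcription factor of innate receptor signalling, had 381, 393 and 75.0 CPM (IL-13 index) and 159, 83.4 and 35.5 CPM (IL-5 index). The log2 ratios of Irf5 were -2.34 (interval -2.62 to -2.07) and -2.16 (interval -2.56 to -1.79), and in the IL-13 index its level was lower only after 60 min. Ldlrad4, a membrane protein that restrains TGF-beta signalling, had 475, 112 and 146 CPM (IL-13 index) and 180.2, 64.4 and 21.3 CPM (IL-5 index). Ldlrad4 had log2 ratios of -1.70 and -3.08.

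Vamp8 (chr6:72385223-72390703), a SNARE protein of endosomes and secretory granules, was lower at each later time. Vamp8 ranged over the IL-13 cells from 0 to 882 CPM (median 365) at 30 min, 0 to 918 CPM (median 181) at 60 min and 0 to 267 CPM (median 0) at 90 min. Vamp8 ranged over the IL-5 cells from 0 to 1031 CPM (median 331) at 30 min, 0 to 1287 CPM (median 215) at 60 min and 0 to 505 CPM (median 15.0) at 90 min. A read of Vamp8 was found in 8 of 11, 8 of 11 and 3 of 11 cells of the IL-13 index and 8 of 10, 7 of 10 and 6 of 11 cells of the IL-5 index. At 90 min 8 of 11 IL-13 index cells had no read, and the cells that had one lay within the range of the earlier cells. The summed level was 379, 273 and 45.0 CPM (IL-13 index) and 457, 281 and 106 CPM (IL-5 index). Vamp8 had log2 ratios of -3.07 (interval -3.43 to -2.73) and -2.11 (interval -2.33 to -1.89).

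**Figure D3:**
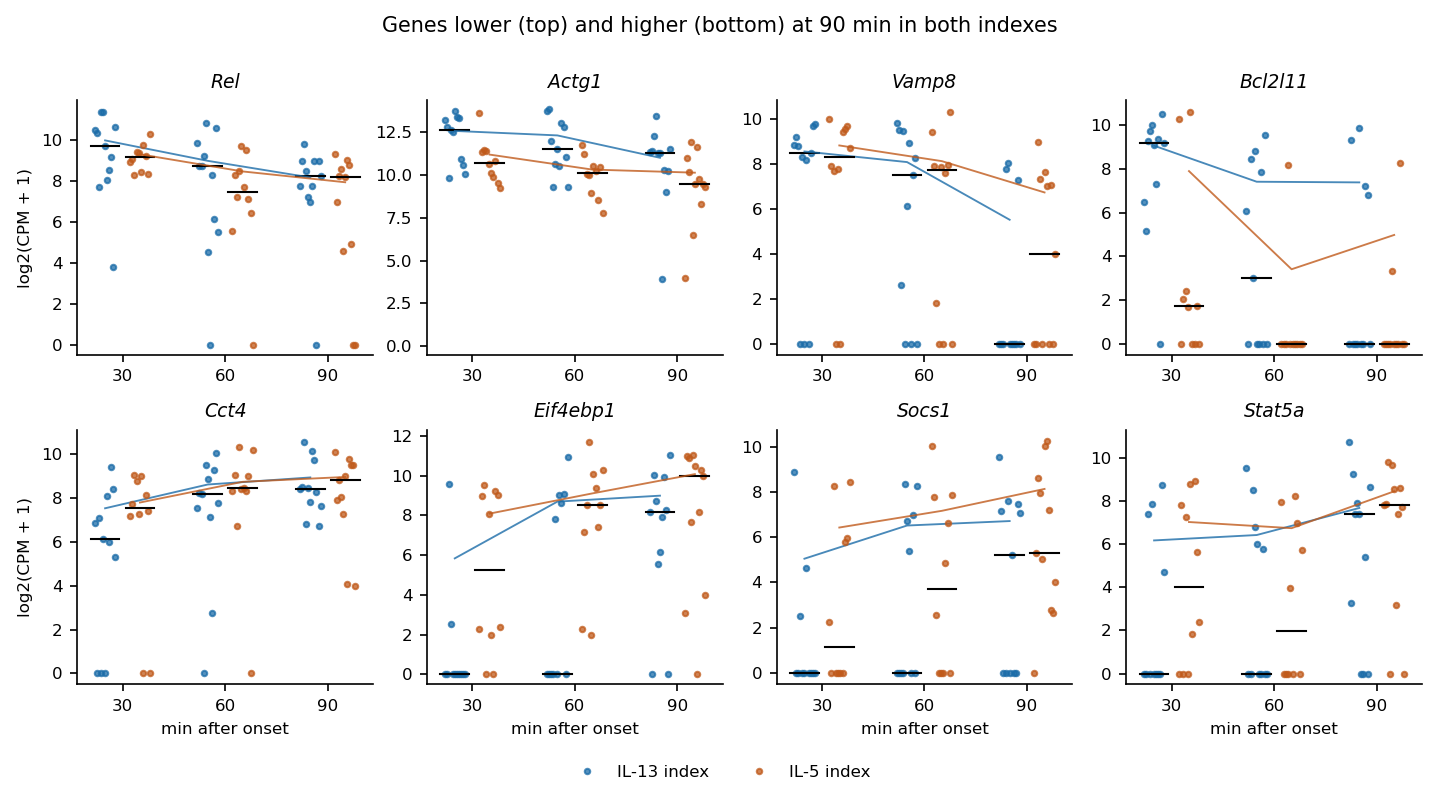
Level of 8 genes as log2(CPM + 1) at 30, 60 and 90 min after onset, 4 lower (top) and 4 higher (bottom) at 90 min in both indexes. Points are single cells of the IL-13 index (blue) or IL-5 index (orange), black bars are medians over cells and lines join the levels of summed reads. Cells without a read sit at 0, and their number differs between the times for most of the 8 genes, as for Vamp8 in the IL-13 index with 3 of 11 cells at 30 min and 8 of 11 at 90 min.

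The remaining leading genes lower at 90 min serve RNA splicing, ubiquitin transfer and metabolism. Zrsr2 (chrX:163935443-163958661), which recognises the splice sites of the minor spliceosome, stood at 141, 12.7 and 23.4 CPM (IL-13 index) and 121, 105 and 2.19 CPM (IL-5 index). The 90 min level of the IL-5 index rests on 4 reads, found in 1 of 11 cells. Zrsr2 had log2 ratios of -2.59 and -5.79. Magohb (chr6:131284388-131293244), a core part of the exon junction complex with a near-identical copy, Magoh, had 176, 26.1 and 0 CPM (IL-13 index) and 63.9, 112 and 15.9 CPM (IL-5 index). At 0 reads at 90 min in the IL-13 index, it was at least 97.5-fold lower there, and its log2 ratio in the IL-5 index was -2.01 (interval -2.62 to -1.45). Ube2e3 (chr2:78868124-78921293), a ubiquitin-conjugating enzyme, had 245, 276 and 49.2 CPM (IL-13 index) and 104, 21.7 and 12.6 CPM (IL-5 index). Ube2e3 had log2 ratios of -2.32 and -3.05. Adss (chr1:177762962-177796511), an enzyme of AMP synthesis, had 67.6, 44.1 and 19.8 CPM (IL-13 index) and 104, 62.0 and 21.3 CPM (IL-5 index). Adss had log2 ratios of -1.77 and -2.28. Ccdc90b (chr7:92561149-92582294), a protein of the mitochondrial membrane, had 71.0, 0 and 0 CPM (IL-13 index) and 82.2, 25.5 and 19.7 CPM (IL-5 index), at least 39.4-fold lower in the IL-13 index. Hmgb2, a chromatin protein of dividing cells, had log2 ratios of -3.11 and -1.22.

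Among genes higher at 90 min were parts of the IL-2 pathway. Socs1 (chr16:10782240-10785536), an inhibitor of JAK kinases made in response to cytokines, stood at 32.1, 90.5 and 104 CPM (IL-13 index) and 85.0, 143 and 279 CPM (IL-5 index). A read of Socs1 was found in 3 of 11, 5 of 11 and 6 of 11 cells of the IL-13 index and 5 of 10, 6 of 10 and 10 of 11 cells of the IL-5 index. Socs1 had log2 ratios of 1.69 (interval 1.31 to 2.08) and 1.72 (interval 1.51 to 1.93). Stat5a (chr11:100859351-100885169), a transcription factor that IL-2 activates, stood at 71.0, 84.6 and 203 CPM (IL-13 index) and 129, 106 and 348 CPM (IL-5 index). Stat5a ranged over the IL-13 cells from 0 to 421 CPM (median 0) at 30 min, 0 to 734 CPM (median 0) at 60 min and 0 to 1725 CPM (median 166) at 90 min. Stat5a ranged over the IL-5 cells from 0 to 479 CPM (median 26.7) at 30 min, 0 to 302 CPM (median 7.38) at 60 min and 0 to 891 CPM (median 226) at 90 min. The median cell was highest at 90 min in both indexes while the ranges overlapped. Stat5a had log2 ratios of 1.52 (interval 1.25 to 1.78) and 1.43 (interval 1.26 to 1.61). Of 8 STAT, SOCS, Cish and Pim genes compared 4 were higher in both by interval (50.0%, beside 22.4% of all genes) and 0 were lower, with list medians of 0.81 (IL-13 index) and 0.41 (IL-5 index) that ran over 0.59 to 1.11 and 0.09 to 0.79 on leaving out 1 cell. The other 2 were Stat4 (1.29 and 0.65) and Stat5b (0.85 and 2.83), and leaving out 1 IL-13 cell turned Stat5b to -3.91. Il2ra, the high-affinity chain of the IL-2 receptor, stood at 1010.1, 1296 and 1109 CPM (IL-13 index) and 2044, 1714 and 3095 CPM (IL-5 index). Il2rg, the common gamma chain of the same receptor, went the other way and was lower in both indexes by interval.

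Of 6 ILC2 lineage factors compared 2, Id2 and Nfil3, were higher and 0 lower in both by interval, with list medians of 0.11 (IL-13 index) and -0.04 (IL-5 index), and of 4 interferon-linked genes Irf2 was higher and Irf5 lower, beside 22.4% higher and 18.2% lower of all genes. Id2, which all innate lymphoid cells need, stood at 671, 1174 and 1140.2 CPM (IL-13 index) and 534, 896 and 1307 CPM (IL-5 index), with log2 ratios of 0.77 (interval 0.67 to 0.86) and 1.29 (interval 1.20 to 1.38) that were above 0 in each set. Nfil3, which acts early in innate lymphoid development, had 8 and 25 reads at 30 min and 2.99, 27.4 and 61.8 CPM (IL-13 index) and 7.04, 54.4 and 75.4 CPM (IL-5 index). Nfil3 had log2 ratios of 4.37 and 3.42. Irf2, an interferon regulatory factor, had 1 and 15 reads at 30 min. At 90 min it stood at 65.4 CPM in the IL-13 index, a log2 ratio of 7.45 to that 1 read (interval 4.94 to 12.77), and at 133 CPM in the IL-5 index, with a log2 ratio of 4.98 (interval 4.23 to 5.84). Cebpb (chr2:167688915-167690418), a leucine zipper factor of inflammatory genes, had 44.1, 55.8 and 156 CPM (IL-13 index) and 41.4, 157 and 204 CPM (IL-5 index). Cebpb had log2 ratios of 1.82 and 2.30. Zzz3 (chr3:152395473-152462826), a subunit of the ATAC histone acetyltransferase complex, had 41.1, 92.8 and 155 CPM (IL-13 index) and 18.3, 4.68 and 102 CPM (IL-5 index). Zzz3 had log2 ratios of 1.91 and 2.47. Leaving out 1 cell moved these between 0.34 and 3.49 and between 2.08 and 4.52.

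Ranked by the smaller of its ratios in the indexes, the leading gene among those higher at 90 min was Lyar (chr5:38220470-38234306), a nucleolar protein that promotes ribosomal RNA processing. A read of Lyar was found in 2 of 11, 7 of 11 and 8 of 11 cells of the IL-13 index and 1 of 10, 6 of 10 and 7 of 11 cells of the IL-5 index. Lyar stood at 18.3, 189 and 262 CPM (IL-13 index) and 22.8, 255 and 133 CPM (IL-5 index). Lyar had log2 ratios of 3.84 (interval 3.41 to 4.30) and 2.55 (interval 2.18 to 2.93). In the second IL-5 set alone the ratio was 0.14. Aatf (chr11:84422855-84513522), which takes part in making the small ribosomal subunit, had 21.3, 13.1 and 99.7 CPM (IL-13 index) and 37.4, 63.5 and 168 CPM (IL-5 index). Aatf had log2 ratios of 2.23 and 2.17. Exosc4 (chr15:76327397-76330677), a core subunit of the RNA exosome, had 39.2, 161 and 189 CPM (IL-13 index) and 41.4, 138 and 141 CPM (IL-5 index). Exosc4 had log2 ratios of 2.26 and 1.77. Of 23 ribosome biogenesis genes compared 6 were higher in both by interval (26.1%, beside 22.4% of all genes) and 1 was lower, with list medians of 0.74 (IL-13 index) and 0.11 (IL-5 index).

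Few translation factors passed 2-fold in both indexes. Of 19 compared 1 was at least 2-fold higher in both indexes (5.26%, beside 6.68% of all genes). By interval 10 were higher in both (52.6%, beside 22.4% of all) and 2 were lower, and 4 of the 10 were higher in every set and on leaving out any 1 cell, with list medians of 0.32 (IL-13 index) and 0.37 (IL-5 index). Eif4ebp1 (chr8:27260329-27276674), which blocks cap-dependent translation until mTORC1 phosphorylates it, was the 1 gene of the list among the leading genes. Eif4ebp1 ranged over the IL-13 cells from 0 to 761 CPM (median 0) at 30 min, 0 to 1918 CPM (median 0) at 60 min and 0 to 2072 CPM (median 286) at 90 min. Eif4ebp1 ranged over the IL-5 cells from 0 to 747 CPM (median 135) at 30 min, 2.95 to 3344 CPM (median 369) at 60 min and 0 to 2087 CPM (median 1022) at 90 min. The median cell of the IL-13 index had no read until 90 min. Summed Eif4ebp1 was 56.0, 411 and 506 CPM (IL-13 index) and 271, 548 and 1074 CPM (IL-5 index). Eif4ebp1 had log2 ratios of 3.18 (interval 2.92 to 3.44) and 1.99 (interval 1.88 to 2.10). Among IL-13 cells 1 cell held 99.3% of its reads at 30 min, leaving out 1 cell moved that ratio between 2.36 and 8.71, and the first set alone gave 0.79. Eif2s1 and Eif2s2, subunits of the factor that brings the initiator tRNA, had log2 ratios of 0.44 and 0.57 (Eif2s1) and of 0.61 and 0.78 (Eif2s2), and Eif1, of start site selection, of 0.49 and 0.37. Pabpc4 (chr4:123262351-123298925), which binds poly(A) tails, stood at 36.6, 35.6 and 163 CPM (IL-13 index) and 67.9, 107 and 191 CPM (IL-5 index).

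Abce1 (chr8:79683462-79711740) splits ribosomes after termination so that they can be used again, and stood at 21.3, 24.8 and 76.9 CPM (IL-13 index) and 22.5, 37.2 and 124 CPM (IL-5 index). Abce1 had log2 ratios of 1.85 (interval 1.39 to 2.33) and 2.46 (interval 2.08 to 2.84). Abce1 and Vamp8 are shown as a gene higher and a gene lower at 90 min whose 250 bases before the start hold 1 of the 6 motifs searched. Capitals mark the CRE, TGACGTCA, which begins 10 bases before the start of Abce1, and a GAS element, TTCNNNGAA, which begins 121 bases before the start of Vamp8. The RefSeq start used for Vamp8 lies inside the gene span given above, so the last bases of its window lie within that span.
Abce1 promoter, chr8:79711741-79711990, minus strand: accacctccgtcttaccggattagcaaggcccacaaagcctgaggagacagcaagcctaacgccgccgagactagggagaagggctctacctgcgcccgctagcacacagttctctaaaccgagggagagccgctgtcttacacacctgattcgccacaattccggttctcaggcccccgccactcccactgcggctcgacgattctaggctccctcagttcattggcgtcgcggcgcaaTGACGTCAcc
Vamp8 promoter, chr6:72390668-72390917, minus strand: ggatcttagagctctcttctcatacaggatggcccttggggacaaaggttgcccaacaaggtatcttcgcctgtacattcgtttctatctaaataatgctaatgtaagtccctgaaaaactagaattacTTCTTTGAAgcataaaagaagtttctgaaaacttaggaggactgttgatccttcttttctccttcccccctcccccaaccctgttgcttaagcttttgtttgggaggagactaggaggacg

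Across the 70 genes that passed every condition, 56 had a promoter in the table, 28 higher and 28 lower. The motifs were AP-1 (TGANTCA), CRE (TGACGTCA), a kappaB consensus, GAS (TTCNNNGAA), E-box (CACGTG) and the TATA box (letters TATAAA), searched on both strands, with a gene counted if any of its listed starts had a match. AP-1 was found in 1 higher and 1 lower gene (3.57% each), beside 7.82% of all 27025 genes with a promoter. GAS was found in 1 higher and 2 lower genes, beside 8.13% of all, and kappaB in 0 higher and 1 lower gene, beside 1.36%. CRE was found in 1 higher and 0 lower genes, beside 1.77%, E-box in 2 and 1, beside 6.86%, and TATA in 1 and 1, beside 14.3%. A match is a run of letters and not a bound site, and a count of 0 covers only these 250 bases.

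Protein folding genes were often higher at 90 min. Of 19 cytosolic and mitochondrial chaperones compared 2 were at least 2-fold higher in both (10.5%, beside 6.68% of all genes), and 12 were higher by interval (63.2%, beside 22.4%) and 0 were lower, 5 of the 12 in every set and on leaving out any 1 cell, with list medians of 0.53 (IL-13 index) and 0.70 (IL-5 index) that were above 0 in each set. Cct4, a subunit of the TRiC chaperonin that folds actin and tubulin, was lowest at 30 min in both. Cct4 ranged over the IL-13 cells from 0 to 681 CPM (median 68.4) at 30 min, 0 to 1085 CPM (median 287) at 60 min and 104 to 1538 CPM (median 343) at 90 min. Cct4 ranged over the IL-5 cells from 0 to 528 CPM (median 189.8) at 30 min, 0 to 1290.2 CPM (median 349.8) at 60 min and 15.0 to 1097 CPM (median 456) at 90 min. The median cell was higher at each later time in both indexes, and the cells of the 3 times overlapped. Summed Cct4 was 185, 394 and 492 CPM (IL-13 index) and 222, 428 and 499.7 CPM (IL-5 index). Cct4 had log2 ratios of 1.41 (interval 1.25 to 1.58) and 1.17 (interval 1.03 to 1.31). Cct2 and Cct7 of the same ring had log2 ratios of 1.40 and 0.84 (Cct2) and of 0.56 and 1.01 (Cct7). Hsp90aa1, the inducible cytosolic HSP90, stood at 1065, 1001 and 1688 CPM (IL-13 index) and 779, 1187 and 1693 CPM (IL-5 index). Hsp90aa1 had log2 ratios of 0.66 and 1.12. Hspa9, the mitochondrial HSP70, stood at 138, 365 and 271 CPM (IL-13 index) and 246, 257 and 432 CPM (IL-5 index).

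Of 22 genes of ER translocation, folding and the unfolded protein response, 1 was at least 2-fold higher in both indexes (4.55%, beside 6.68% of all genes). By interval 11 were higher (50.0%, beside 22.4% of all) and 1 was lower, 3 of the 11 in every set and on leaving out any 1 cell, with list medians of 0.81 (IL-13 index) and 0.40 (IL-5 index), and of 0.0062 in the first IL-5 set. On leaving out 1 cell the ER medians ran over 0.21 to 0.92 and 0.17 to 0.65. Ssr2, of the complex beside the translocation channel, stood at 102, 115 and 250.4 CPM (IL-13 index) and 293, 369 and 670.2 CPM (IL-5 index). Ssr2 had log2 ratios of 1.29 (interval 1.07 to 1.52) and 1.19 (interval 1.07 to 1.31). Pdia6, an ER disulfide isomerase, and Spcs2, of the signal peptidase, had log2 ratios of 3.28 and 0.60 (Pdia6) and of 1.29 and 0.35 (Spcs2). Hspa5, the ER chaperone BiP, had 527, 541 and 590.2 CPM (IL-13 index) and 302, 892 and 977 CPM (IL-5 index), and in the IL-13 index its ratio of 0.16 (interval 0.05 to 0.28) ran from -0.18 to 0.66 on leaving out 1 cell. Sec23a, of the COPII coat that carries cargo out of the ER, had 0 reads at 30 min in each index. Against 3 reads it was at least 53.0-fold (IL-13 index) and 81.5-fold (IL-5 index) higher at 90 min, with a read in 3 and 4 of 11 cells. Sec22b, a SNARE protein between ER and Golgi, had 108, 186 and 228 CPM (IL-13 index) and 80.8, 110.3 and 198 CPM (IL-5 index). Arfgap2 (chr2:91264974-91276931), which acts on the COPI coat, had 25.0, 46.0 and 99.7 CPM (IL-13 index) and 48.7, 17.9 and 189 CPM (IL-5 index). Arfgap2 had log2 ratios of 1.99 (interval 1.58 to 2.43) and 1.95 (interval 1.69 to 2.22). The second IL-5 set gave 0.90 for Arfgap2. Over the 21 trafficking genes compared, 5 were higher and 3 lower in both by interval (23.8% and 14.3%, beside 22.4% and 18.2% of all genes), the lower ones being Vamp8, Stx11 and Stxbp2, and the list medians were 0.32 (IL-13 index) and -0.08 (IL-5 index).

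Genes of amino acid supply had list medians of 2.21 (IL-13 index) and 0.63 (IL-5 index), and of 3.20 and 1.44 in the first and second IL-13 set. Of 9 genes compared 6 were higher in both by interval (66.7%, beside 22.4% of all genes) and 0 were lower, and 3 passed 2-fold in both (33.3%, beside 6.68%). Mthfd2, of mitochondrial one-carbon metabolism, stood at 46.3, 146 and 214 CPM (IL-13 index) and 127, 161 and 236 CPM (IL-5 index), with log2 ratios of 2.21 (interval 1.91 to 2.52) and 0.89 (interval 0.70 to 1.09), and was the only 1 of the 6 above 0 in every set and on leaving out any 1 cell. Shmt2, which makes glycine in mitochondria, stood at 0, 45.7 and 54.6 CPM (IL-13 index) and 47.3, 70.0 and 134 CPM (IL-5 index). Aldh18a1, of proline synthesis, stood at 0, 49.3 and 106 CPM (IL-13 index) and 25.6, 24.9 and 114 CPM (IL-5 index). At 30 min both had 0 reads in the IL-13 index. Slc7a1, an importer of arginine, had 26.5, 183 and 134 CPM (IL-13 index) and 56.0, 97.2 and 179 CPM (IL-5 index). The proteasome list was nearer to all genes, with 9 of 28 higher and 3 lower by interval (32.1% and 10.7%, beside 22.4% and 18.2%) and medians of 0.23 (IL-13 index) and 0.23 (IL-5 index). Psmb5, a catalytic subunit, was past 2-fold in both, at 123, 178 and 263 CPM (IL-13 index) and 227, 395 and 472 CPM (IL-5 index). Plaa (chr4:94567514-94603244), a cofactor of the p97 segregase that handles ubiquitinated proteins, had 28.0, 18.6 and 107 CPM (IL-13 index) and 6.48, 104 and 103 CPM (IL-5 index). Plaa had log2 ratios of 1.94 (interval 1.54 to 2.35) and 4.00 (interval 3.37 to 4.69). Leaving out 1 cell moved these between 1.13 and 3.82 and between 2.84 and 5.62, and the lower value is without the cell of 14.1% mitochondrial reads.

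**Figure D4:**
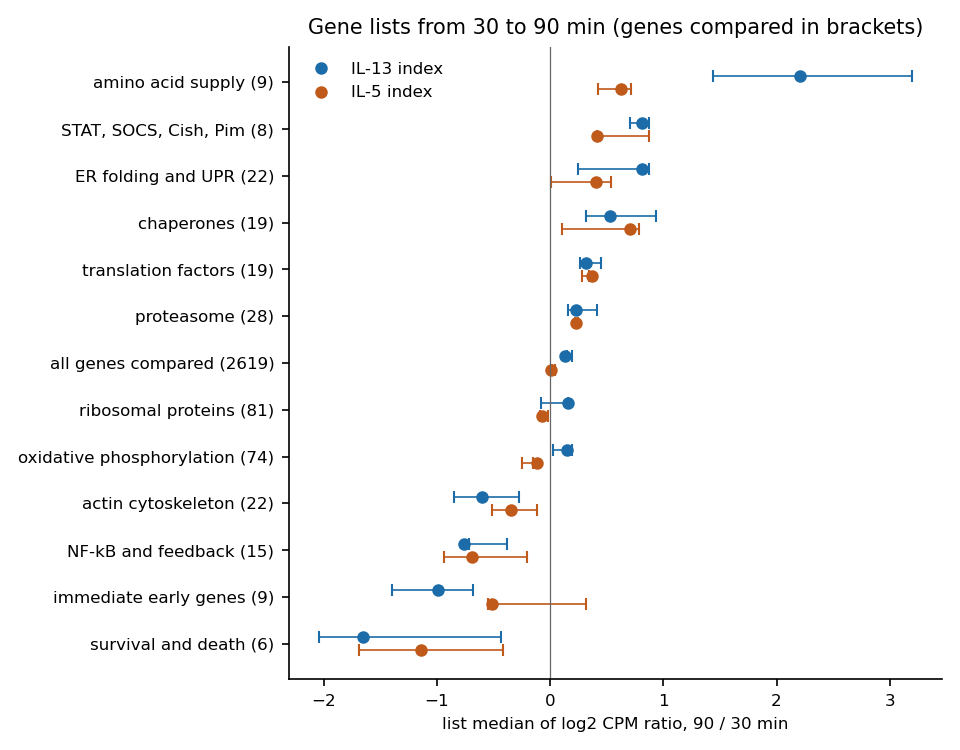
Median log2 ratio of CPM at 90 against 30 min for 12 gene lists and for all genes compared, in the IL-13 index (blue) and IL-5 index (orange). Points are medians from all cells, ticks are the medians of the first and second set alone, and brackets give the genes compared. Chaperone, translation and amino acid medians lie above 0 in each set, actin, NF-kB and survival medians below 0, and ribosomal protein medians run from -0.088 to 0.162.

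The ribosomal protein and oxidative phosphorylation lists had medians near 0. Of 81 cytosolic ribosomal protein genes compared 0 passed 2-fold in both indexes, 15 were higher and 14 lower by interval (18.5% and 17.3%, beside 22.4% and 18.2% of all genes), and the list medians were 0.16 (IL-13 index) and -0.07 (IL-5 index). Rpsa, of the small subunit, stood at 2287, 2214 and 2964 CPM (IL-13 index) and 1937, 1891 and 2522 CPM (IL-5 index). Rplp1, of the stalk of the large subunit, stood at 3317, 3199 and 2393 CPM (IL-13 index) and 2796, 2815 and 2035 CPM (IL-5 index). Of 74 nuclear genes of oxidative phosphorylation 12 were higher and 13 lower by interval (16.2% and 17.6%), with medians of 0.15 (IL-13 index) and -0.11 (IL-5 index). Ndufs7, a core subunit of complex I, was 1 of 3 genes of that list lower past 2-fold in both (4.05%, beside 4.81% of all genes), at 447, 249 and 205 CPM (IL-13 index) and 388, 224 and 179 CPM (IL-5 index). Of 6 mitochondrially encoded mRNAs compared 3 were higher in both by interval (50.0%, beside 22.4% of all genes) and 0 lower, with list medians of 0.08 (IL-13 index) and 0.62 (IL-5 index) and, by set in the IL-5 index, of 0.0070 and 1.11. Of these mt-Nd1 stood at 1364, 1596 and 1681 CPM (IL-13 index) and 1815, 1513 and 3724 CPM (IL-5 index). Leaving out 1 cell moved the IL-5 ratio of mt-Nd1 between 0.56 and 1.15, and the lower value is without the cell of 14.1% mitochondrial reads.

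Courses with a turn at 60 min that passed 2-fold against both other times in both indexes were few. Of 3019 genes with at least 50 CPM at the highest time in each index, 26 (0.861%) were at least 2-fold higher at 60 min than at both other times in both indexes and 36 (1.19%) at least 2-fold lower. With a read in at least 50% of the cells of the higher times, and the same direction when CPM was averaged over cells and on leaving out any 1 cell, 2 higher genes and 1 lower gene were left. Direction in each set was not asked for here. The lower 1 was Stat6, the transcription factor of IL-4 and IL-13 signalling, at 171, 45.7 and 165 CPM (IL-13 index) and 179, 39.2 and 157 CPM (IL-5 index). A read of Stat6 was found in 11 of 11, 6 of 11 and 6 of 11 cells of the IL-13 index and 9 of 10, 3 of 10 and 7 of 11 cells of the IL-5 index. Igsf5, a junction adhesion protein, stood at 46.3, 203 and 73.2 CPM (IL-13 index) and 47.0, 115 and 51.9 CPM (IL-5 index). Cmc1, an assembly factor of cytochrome c oxidase, stood at 86.7, 196 and 93.1 CPM (IL-13 index) and 49.0, 117 and 20.8 CPM (IL-5 index). Both turned in 1 set, Igsf5 in the first IL-5 set and Cmc1 in the first IL-13 set. In single steps 117 genes were higher and 107 lower in both indexes at 60 against 30 min (4.68% and 4.28%), with 198 (7.92%) opposite, and 147 were higher and 100 lower at 90 against 60 min (5.66% and 3.85%), with 225 (8.66%) opposite.

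The cells of 1 time differed among themselves at each point of the course. At 50000 reads per cell, the median number of genes detected was 2037, 2079 and 2046 for the IL-13 index and 2308, 2408 and 2364 in the IL-5 index at 30, 60 and 90 min. Over 1293 genes with at least 50 CPM in every group, the median SD over cells of log2(CPM + 1) was 3.70, 3.68 and 3.78 for the IL-13 index and 3.45, 3.42 and 3.73 in the IL-5 index. Over the 498 genes with at least 200 CPM it was 2.65, 2.71 and 2.84 for the IL-13 index and 1.19, 1.24 and 3.07 in the IL-5 index. On leaving out 1 cell the IL-13 values at 60 and 90 min went down to 1.35 and 1.87, and no order in time is read from them. The value of 3.07 was 2.04 without the cell of high mitochondrial share, which still lay above the values of the earlier times.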

How the data were processed

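Single-cell mRNA libraries (SMART-Seq v4 3' DE) of 120 mouse ILC2 were deposited as 1 count table per cell: per the authors' methods, reads were aligned to GRCm38 with TopHat and assigned to genes with HTSeq. The submitters' processing notes name TopHat2 and the builds mm10 and GRCh38. Versions and the strand setting are not given in the sources used here, so reads of overlapping or antisense genes cannot be told apart. The deposited values are whole-number counts without molecular identifiers, over 46078 identifiers (45143 with a symbol). The 5 summary categories of HTSeq were left out of library sizes. Over the transition cells gene reads made up 60.1% of the reads in the tables, reads without a unique position 29.8%, reads outside genes 8.23% and ambiguous reads 1.80%. Of the series 56 cells are not members, used only for the values of other states.

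Transition cells were grouped by index and time label, and cells under 10000 gene reads were dropped. Counts were summed over the cells of an index and time and scaled to CPM of gene reads. Genes with at least 50 CPM at the higher of the times in each index were compared by the log2 ratio, with 3 reads as the floor of a group and exact (Clopper-Pearson) 95% intervals of the split of reads. Intervals and floors cover counting error only. With 1 sample per index and time no test was made. Named genes were the 12 highest and 12 lowest by the smaller ratio of the indexes, under the conditions stated in the report, up to 6 genes each highest or lowest at 60 min, and members of 33 gene lists. Members and lists were chosen with earlier results of these data known. List genes given with values were picked among list members by direction in both indexes. Spread and detected genes were computed after thinning each cell to 50000 reads, and spread as log2(CPM + 1). Alternatives were the title date sets, minimum levels, fold thresholds, TMM (edgeR 4.0.16) and DESeq2 1.42.0 scaling factors, the mean of the cells' own CPM and leaving out each cell. Python 3.11.15, numpy 2.4.6, scipy 1.17.1, pandas 2.3.3 and R 4.3.3 were used, and the ratio and interval code was tested on simulated data. Promoters are from a RefSeq table, in which 20 of the 24 leading genes were matched. Spike-in counts were not used here.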

Additional observations from a re-analysis of the deposited data

Results flagged for a closer look

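Of the 29 gene lists with at least 5 genes compared, the medians of 5 had 1 sign in both sets of the IL-13 index and the other sign in both sets of the IL-5 index, for 90 against 30 min. The difference between the indexes was not tested in any of them. Kruppel-like factors and quiescence genes had a median log2 ratio of -1.15 (IL-13 index) and 0.90 (IL-5 index), over 5 genes compared. Of these 5, however, 0 passed 2-fold in opposite directions. In both indexes 1 was higher and 2 were lower past 2-fold (20.0% and 40.0%, beside 6.68% and 4.81% of all genes). Nuclear non-coding RNAs had -1.38 and 0.47 over 6 genes, Gadd45 family and stress genes -0.53 and 0.091 over 11, and splicing factors -0.21 and 0.014 over 22. In each of these lists 1 gene passed 2-fold in opposite directions (9.13% of all genes). By interval 1 of the 6 non-coding RNAs was higher and 3 were lower in both indexes. Nuclear genes of oxidative phosphorylation had 0.15 (IL-13 index) and -0.11 (IL-5 index), over 74 genes compared, of which 0 passed 2-fold in opposite directions. Gene reads, genes detected and mitochondrial share were checked for outliers by Dixon's gap ratio at the 95% level, in the IL-5 index at 30 and 60 min only. The groups of 11 cells, among them the IL-5 index at 90 min, were not checked. In 1 of 6 checks the deepest IL-5 index cell at 60 min, with 785198 gene reads, stood far above the other 9 of its group. Some such gaps arise by chance.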

How the results depend on the processing

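No paired analysis was possible because no result comes from a test, and values within each title date set stand in its place. The number of genes past 2-fold in both indexes moved with the minimum level, the fold threshold and the title date set. In brackets are the genes past the threshold in opposite directions. The 301 genes (239) at 90 against 30 min became 727 (598) at 20 CPM, 40 (19) at 200 CPM and 1424 (1275) without a minimum, 592 (463) at 1.5-fold and 68 (64) at 4-fold, and 440 (398) in the first set and 432 (401) in the second set, with 284 to 330 on leaving out 1 cell. The 224 genes (198) at 60 against 30 min became 561 (585), 21 (9), 1267 (1339), 444 (397), 51 (43), 364 (340) and 353 (358) under the same settings and 210 to 254 on leaving out 1 cell. The 247 genes (225) at 90 against 60 min became 611 (612), 16 (14), 1258 (1293), 487 (467), 65 (62), 428 (397) and 353 (373) and 240 to 273 on leaving out 1 cell. For the single steps opposite genes thus outnumbered those that moved the same way at 20 CPM, without a minimum and in the second set. More genes are compared at lower minimums (834 at 200 CPM, 2619 at 50, 4361 at 20 and 6999 with none, for 90 against 30 min), and a larger share of them passed. With TMM factors the 175 higher and 126 lower genes became 151 and 150. The agreement of the indexes (r = 0.050) was 0.254 at 200 CPM, 0.0230 in the first set, 0.00094 in the second set and 0.0287 to 0.0684 on leaving out 1 cell. The change in spread over cells from 30 to 90 min was 0.0799 (IL-13 index) and 0.282 (IL-5 index) (0.0165 to 0.134 and 0.163 to 0.370 on leaving out 1 cell), and 0.189 and 1.89 at 200 CPM. The change in genes detected was 9 among IL-13 cells (-75 to 60 on leaving out 1 cell) and 56 among IL-5 cells (6 to 106), and became -72 and -49 without thinning and -2 and -5 at 5 reads. In the first set Igsf5 turned to -0.030 for 60 against 30 min and to 0.023 for 90 against 60 min in the IL-5 index, and Cmc1 to 1.20 for 90 against 60 min in the IL-13 index. Where no cause is named, the cause was not tested.

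The 24 leading genes kept their sign in all 480 values over the other settings, of which direction in sets and left-out cells was part of their choice, and of 4340 values of other genes 319 changed sign. Of 29 gene lists with at least 5 genes compared, 17 had medians on the same side of the median of all genes in both indexes, and 15 to 22 over the alternatives. Among lists whose indexes agree, the medians of NF-kB, actin, survival, STAT, translation, chaperone, ER, proteasome and amino acid lists kept their sign in all 180 values. Only these lists were run through the settings, and they were picked with these data known, so the count is no independent evidence. Lists left out did turn in a set. The AP-1 median was 0.25 in the first IL-5 set, and the immediate early median was 0.31 in the second. The costimulatory median was 0.11 in the second IL-13 set and 0.65 in the first IL-5 set. The alternative without the cell of high mitochondrial share was chosen after seeing the data and gave 293, 224 and 242 genes. Depth limits genes under about 50 CPM, where a cell of 50723 reads holds few reads, and the 90 min cells most.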

Other observations

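Receptors of ILC2 were mixed between 30 and 90 min. Of 12 compared, Il2ra, Il7r (the IL-7 receptor) and Tnfrsf9 (the costimulatory receptor 4-1BB) were higher in both indexes by interval, and Il2rg (the common gamma chain), Tnfrsf4 (OX40) and Cd44 were lower, 25.0% each beside 22.4% and 18.2% of all genes. Tnfrsf9 stood at 14.9, 242 and 349 CPM (IL-13 index) and 481, 520.4 and 596 CPM (IL-5 index) at 30, 60 and 90 min. Lipid mediator and effector genes differed between the indexes, with list medians of 1.53 (IL-13 index) and -1.16 (IL-5 index). Of 7 compared 2 were higher and 2 lower in both by interval (28.6% each, beside 22.4% and 18.2%). A further count of 2 passed 2-fold in opposite directions (9.13% of all). Ptger4, a receptor of prostaglandin E2, was higher and Bmp7, a growth factor, lower in each set (7.03% and 5.96% of all genes). Their log2 ratios were 2.53 and 1.77 (Ptger4) and -0.85 and -1.74 (Bmp7). Foxp1, a factor of lymphocyte quiescence, stood at 366, 162 and 165 CPM (IL-13 index) and 137, 84.0 and 60.1 CPM (IL-5 index).

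The series also holds cells recovered before the stimulus was added (pre), activated cells and silent cells of each index, 5, 11 and 11 in the IL-13 index and 5, 11 and 10 in the IL-5 index after the same depth minimum, which entered no comparison above. Rel stood at 1.04, 190.1 and 83.9 CPM (IL-13 index) and 0, 113 and 148 CPM (IL-5 index) in pre, activated and silent cells. Stat5a had 0, 335 and 0.378 CPM (IL-13 index) and 0, 337 and 199.8 CPM (IL-5 index), and Eif4ebp1 52.9, 1055 and 381 CPM (IL-13 index) and 57.7, 995 and 555 CPM (IL-5 index), in the same order. Vamp8 had 689, 114 and 586 CPM (IL-13 index) and 615, 151 and 319.6 CPM (IL-5 index), and Bcl2l11 139, 0 and 41.2 CPM (IL-13 index) and 0, 5.89 and 14.4 CPM (IL-5 index). Of the 12 leading genes lower at 90 min, 11 were also below their 30 min level in the activated cells of both indexes, 9 in the silent cells and 9 in the pre cells. Of the 12 leading genes higher at 90 min, 8 were above their 30 min level in both indexes in activated cells, 8 in silent cells and 4 in pre cells. The 30 min levels chose these genes, so these counts are no independent evidence of a direction, and the pre cells rest on 5 libraries per index.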
